A study of Homo sapiens with 4 samples.

Results

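The genes of fatty acid synthesis and desaturation described here are the transcription factor gene SREBF1 and the enzyme genes ACLY, ME1, ACACA, FASN, ELOVL5, ELOVL6, SCD, FADS1 and FADS2. They are 10 of the 25283 rows of a table of estimated RNA-seq counts per gene, found by symbol. The list was chosen by the measured levels of these genes in the libraries compared below, so their differences between groups are given as a description, without a test. The cells were H1 human embryonic stem cells, an established line, taken through neural progenitors and neuronal precursors and labelled neurons. In the control group (2 libraries) the genotype label is wild type with an empty vector, and in the U1_OE group (2 libraries) it is overexpression of U1 snRNA. U1 snRNA pairs with the 5′ splice sites of pre-mRNA. The treatment text, which is the same for both groups, names a lentiviral vector for U1 snRNA given for 36 hours, so what the control cells received rests on their genotype label. The promoter of the vector and the share of cells that took it up are not given in the sources used here.

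Cells make fatty acids from citrate that leaves the mitochondria. ATP-citrate lyase cuts it to acetyl-CoA, acetyl-CoA carboxylase turns that into malonyl-CoA, and fatty acid synthase builds palmitate from both with NADPH. Elongases then lengthen the chain and desaturases place double bonds in it. SREBP-1, the product of SREBF1, switches on most genes of this route, while the related SREBP-2 acts mainly on cholesterol synthesis. In neurons and their support cells the route feeds membrane growth.

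The libraries held 16713505 to 19057423 estimated counts, and each of the 10 genes had at least 231 counts in every library. Levels are given as CPM, counts scaled by TMM to a common library size. By the summed CPM of marker lists, the labelled cell type was not the leading one in these transcripts. Such sums follow the most abundant transcripts and do not measure shares of cells. The 19 mesenchymal and fibroblast markers summed to 100000 and 112900 CPM in control and to 116400 and 110200 CPM in U1_OE libraries, and all 19 reached 10 CPM in every library. Those sums overlapped, but in 11 of the 19 markers both U1_OE libraries lay above both control libraries and in 1, SPARC, both lay below. DESeq2 called LOX, POSTN and COL6A1 among them, all higher in U1_OE (adjusted p = 7.25e-09, 0.00938 and 0.0381), and edgeR called 0. Over all genes tested, 19.7% had both U1_OE libraries above and 22.1% both below, and DESeq2 called 1.08%. The 13 measured of 15 neuronal markers summed to 191 and 123 CPM in control and to 337 and 373 CPM in U1_OE libraries, and 1 of them reached 10 CPM in every library. The higher sum in U1_OE came from TUBB3 (159 and 104 against 264 and 338 CPM) and GAP43 (3.29 and 1.29 against 46.96 and 11.5 CPM). DESeq2 called both TUBB3 and GAP43 higher in U1_OE (adjusted p = 0.00134 and 4.63e-05), and edgeR called neither. Without these 2 genes the other 11 summed to 28.6 and 17.8 CPM in control and to 25.9 and 23.4 CPM in U1_OE libraries. Of these 11, RBFOX3 and SYP were below both control libraries in both U1_OE libraries, and NEFM was above both. All were at low levels, where few counts set the order. RBFOX3 had 0.269 and 0.18 CPM in control and 0.148 and 0.042 CPM in U1_OE libraries. SYP had 1.197 and 0.669 against 0.582 and 0.243 CPM, and NEFM 0.273 and 0.273 against 0.503 and 0.367 CPM. The part of these marker differences in the values below was not tested. Of 12 adipocyte markers 6 were measured, and they summed to 6.01 to 10.9 CPM over the 4 libraries. Of 10 hepatocyte markers 7 were measured. They summed to 11.6 and 10.6 CPM in control and to 3.98 and 6.73 CPM in U1_OE libraries, and 0 reached 10 CPM in every library. DESeq2 called SERPINA1 among them, lower in U1_OE (adjusted p = 0.0144), and edgeR did not. Markers of the oligodendrocyte lineage summed to 124.3 to 150.8 CPM and those of neural progenitors to 45.87 to 58.45 CPM. Of the 10 oligodendrocyte lineage markers 4 were measured, and 2, CNP and MBP, reached 10 CPM in every library. MOG, MAG, MOBP, SOX10, OLIG1 and OLIG2 were not measured. Of the 9 progenitor markers 7 were measured, without SOX1 and HES5, and 1, NES, reached 10 CPM in every library. Astrocyte markers summed to 1011 to 1411 CPM, of which 1, GJA1, reached 10 CPM in every library. U1 snRNA was not analysed here, so the libraries were not checked for it. In such bulk samples, fewer cells of a type and less RNA per cell cannot be told apart.

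SREBF1, SCD and ACACA stood highest in U1_OE relative to control libraries, with mean levels 1.93, 1.92 and 1.59 times those of control. FASN, ACLY and FADS2 followed with 1.36, 1.24 and 1.24 times. ELOVL6, FADS1, ME1 and ELOVL5 lay between 0.977 and 1.03 times the control level. In 6 of the 10 genes both U1_OE libraries lay above both control libraries, in 0 both lay below, and in 4 the groups overlapped. Among the 17317 genes tested, 19.7% had both U1_OE libraries above and 22.1% had both below. The median log2 fold change was 0.31 over the 10 genes and -0.01 over all genes tested. The sign was positive for 9 of the 10 genes and for 49.3% of all genes tested. It was negative for ELOVL5 (for 3 of the 10, with FADS1 and ME1, when scaled by library size alone) and for 50.7% of all genes tested. Since the list was drawn up from this contrast, nothing is read from these counts.

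Across the whole table, the quasi-likelihood test of edgeR, with p adjusted after Benjamini and Hochberg, called 0 of 17317 genes at an adjusted p of 0.05, that is 0% (1572 had an unadjusted p under 0.05), and so none of the 10. DESeq2, the second tool, called 1.08% of 17440 genes and limma-voom called 0. The DESeq2 calls held 2 of the 10 genes, SREBF1 and SCD. These calls come from the fit of the whole table. Since the list was chosen from this contrast, nothing is read from them. Neither call held in every fit with 1 library left out. With the replicate number as a block DESeq2 called 0 of the 10, and 80 genes over the whole table. The labels do not say whether the 2 libraries of a group are separate cultures, so any p-value here reflects differences between libraries that could be technical.

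**Figure D1:**
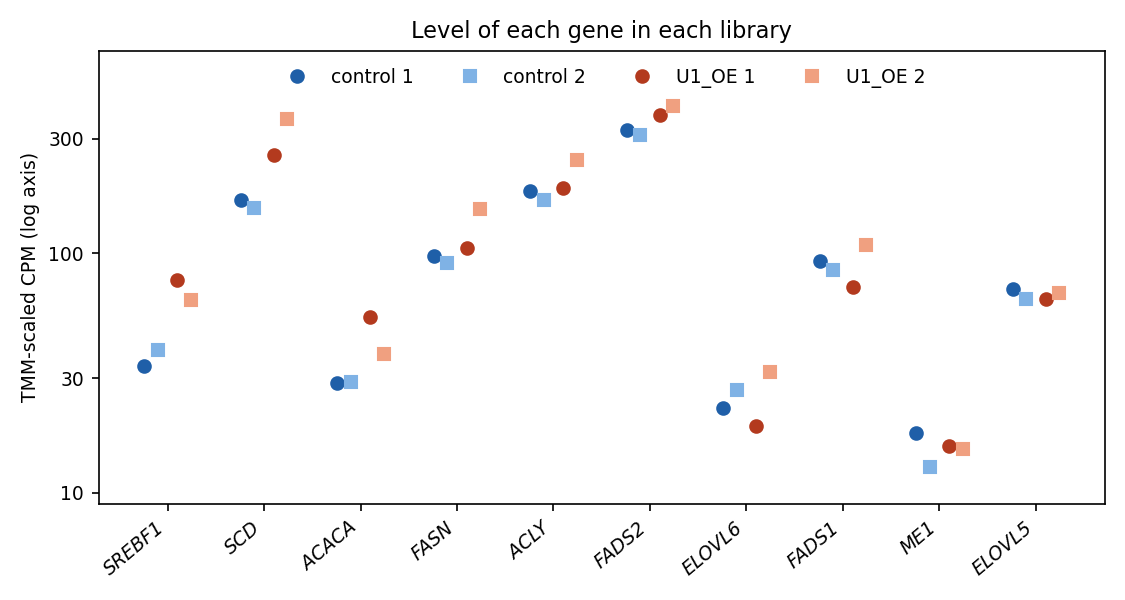
Level of each of the 10 genes in the 4 libraries, in TMM-scaled CPM on a log axis; each point is 1 library. SREBF1, SCD and ACACA show both U1_OE points clear of the control points, whereas the points of ELOVL6, FADS1, ME1 and ELOVL5 interleave.

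SREBF1 encodes the factor that drives the route. It lies on chromosome 17 from 17810399 to 17837002, minus strand (GRCh38, GENCODE v29). Its level was 33.9 and 39.3 CPM in control and 77.6 and 64.0 CPM in U1_OE libraries. Both U1_OE libraries were high, and the nearest pair of libraries differed by 0.70 on the log2 scale. The means were 36.6 ± 3.83 and 70.8 ± 9.64 CPM (SD, n = 2), a log2 fold change of 0.95 ± 0.17 (SE; edgeR). With each library left out in turn the log2 fold change stayed between 0.81 and 1.08. Exons of SREBF1 overlap those of RAI1 on the opposite strand by 556 bases, 6.9% of the exon bases of SREBF1. The labels name no strand-specific step, so reads there cannot be assigned. RAI1 itself had 12.3 and 14.4 CPM in control and 16.97 and 13.5 CPM in U1_OE libraries, which overlap.

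The sequence before the start of SREBF1 is shown because SREBF1 and SCD had the leading fold differences, which were within their SE of each other. It is taken from the RefSeq promoter table (GRCh38.p14, minus strand, chr17:17837003-17837097) and ends before the first annotated exon base. SREBF1 has further starts that this stretch does not cover. Capitals mark the GC box, GGGCGG on either strand, of which it holds 3.
SREBF1: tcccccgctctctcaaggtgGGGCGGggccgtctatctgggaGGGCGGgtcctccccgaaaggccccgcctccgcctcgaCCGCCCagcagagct

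ACLY encodes ATP-citrate lyase, the enzyme that provides cytosolic acetyl-CoA. Its level was 183 and 166 CPM in control and 188 and 245 CPM in U1_OE libraries. U1_OE replicate 1 was barely above control replicate 1, and U1_OE replicate 2 was the high library. The log2 fold change was 0.31 ± 0.18 (SE; edgeR), and it was 0.11 without U1_OE replicate 2. ME1, cytosolic malic enzyme, supplies NADPH. It had 17.7 and 12.8 CPM in control and 15.7 and 15.2 CPM in U1_OE libraries, so both U1_OE values lay between the control values. Its log2 fold change was 0.02 ± 0.22 (SE; edgeR). The genes at the entry of the route thus showed either 1 high library or no separation of the groups.

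ACACA encodes acetyl-CoA carboxylase alpha, which commits acetyl-CoA to fatty acid synthesis. It had 28.8 and 28.95 CPM in control and 54.1 and 38.1 CPM in U1_OE libraries. The controls were almost equal and both U1_OE libraries were above them, replicate 1 the more so. The log2 fold change was 0.67 ± 0.21 (SE; edgeR), and it was 0.41 without U1_OE replicate 1 and 0.91 without U1_OE replicate 2. FASN encodes fatty acid synthase, the multi-enzyme that builds palmitate. It had 97.4 and 91.1 CPM in control and 104.7 and 152 CPM in U1_OE libraries. Here U1_OE replicate 1 was close to the controls and U1_OE replicate 2 was the high library. The log2 fold change of FASN was 0.45 ± 0.21 (SE; edgeR), and it was 0.15 without U1_OE replicate 2 and 0.70 without U1_OE replicate 1.

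ACACA spans chromosome 17 from 37084988 to 37406818 on the minus strand and has 3 windows in the RefSeq promoter table. Stretches of the middle and of the innermost start are shown because ACACA followed SREBF1 and SCD in fold difference and its starts differ in their boxes. They lie at chr17:37359217-37359346 and chr17:37299879-37299942 (GRCh38.p14, minus strand). Capitals mark GC boxes and CCAAT boxes (CCAAT, or ATTGG on the other strand).
ACACA middle start: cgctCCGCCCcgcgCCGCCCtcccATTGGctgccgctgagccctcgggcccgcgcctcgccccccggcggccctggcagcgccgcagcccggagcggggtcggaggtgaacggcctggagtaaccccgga
ACACA innermost start: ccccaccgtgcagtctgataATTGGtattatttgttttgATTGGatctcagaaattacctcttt
The middle start has 6 GC boxes and 1 CCAAT box before its first annotated exon base. The stretch shown for it is cut at 130 bases and leaves out some of these GC boxes. The innermost start has 2 CCAAT boxes and no GC box. The table of counts does not separate reads by start.

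ELOVL6 encodes the elongase that lengthens palmitate. It had 22.5 and 27.0 CPM in control and 18.97 and 32.1 CPM in U1_OE libraries. The 2 U1_OE libraries were the lowest and the highest of the 4. The log2 fold change was 0.05 ± 0.29 (SE; edgeR), with -0.38 without U1_OE replicate 2 and 0.38 without U1_OE replicate 1. ELOVL5 lengthens polyunsaturated chains. It had 71.2 and 64.6 CPM in control and 64.4 and 68.2 CPM in U1_OE libraries, the narrowest span of the 10 genes as a ratio of highest to lowest library. Its log2 fold change was -0.03 ± 0.13 (SE; edgeR). For neither elongase were the groups apart.

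SCD encodes stearoyl-CoA desaturase, which makes monounsaturated fatty acids. It lies on chromosome 10 from 100347124 to 100364834, plus strand. Its level was 167 and 155 CPM in control and 256 and 364 CPM in U1_OE libraries. Both U1_OE libraries were high, and their own ratio of 1.42 exceeded that of the controls. The means were 161 ± 8.73 and 309.9 ± 76.3 CPM (SD, n = 2), a log2 fold change of 0.94 ± 0.21 (SE; edgeR). Without U1_OE replicate 2 it was 0.67, and without U1_OE replicate 1 it was 1.18. The sequence before its first annotated exon is shown for the same reason. It comes from the RefSeq promoter table (GRCh38.p14, plus strand, chr10:100346984-100347071). Capitals mark its 2 CCAAT boxes, the letters that the factor NF-Y binds.
SCD: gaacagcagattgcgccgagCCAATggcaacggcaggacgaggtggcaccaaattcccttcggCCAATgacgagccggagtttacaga

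FADS2 encodes the desaturase that opens the polyunsaturated route. It had 326 and 312 CPM in control and 377 and 410.3 CPM in U1_OE libraries. Both U1_OE libraries were above both controls, by small margins, and the log2 fold change was 0.31 ± 0.13 (SE; edgeR). FADS1 encodes the desaturase of a later step of the same route. It had 93.2 and 84.7 CPM in control and 72.5 and 108 CPM in U1_OE libraries. The U1_OE libraries lay on either side of the controls, and the log2 fold change was 0.02 ± 0.22 (SE; edgeR), or -0.29 without U1_OE replicate 2. The 2 genes are neighbours on opposite strands of chromosome 11 with overlapping annotated spans, 61792980 to 61867354 for FADS2 and 61799625 to 61829318 for FADS1. They share 490 exon bases, so part of their reads cannot be assigned without strand.

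**Figure D2:**
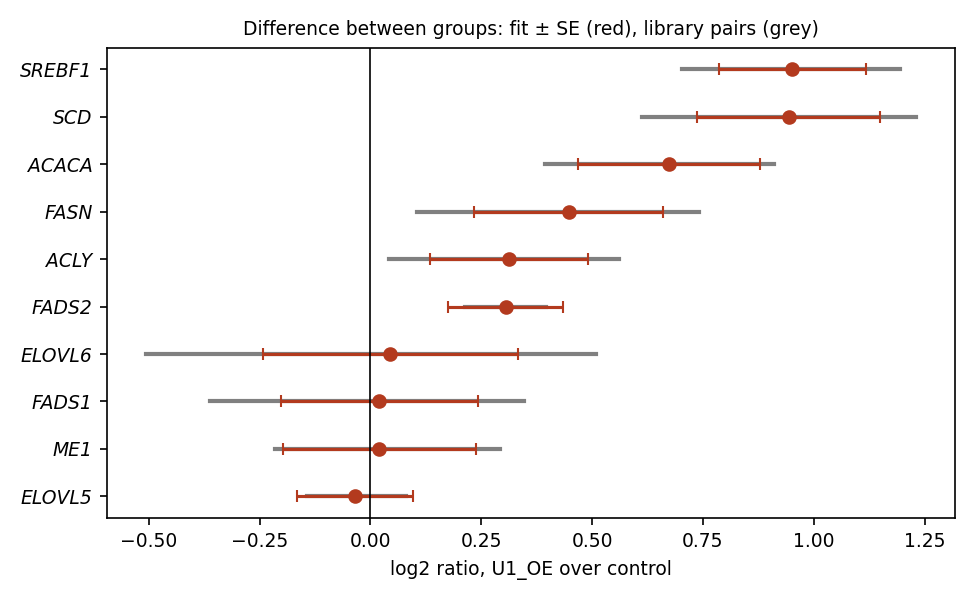
Difference between U1_OE and control libraries for each gene on the log2 scale. Red points and bars are the edgeR log2 fold change ± SE, and grey lines span the 4 ratios of 1 U1_OE to 1 control library; the grey lines of 6 genes lie right of 0 and those of 4 cross it.

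The RefSeq promoter table matched 9 of the 10 genes, with 13 windows in all. FASN was not matched. In the 250 bases before each start, 4 sets of letters were searched on both strands: the GC box, the CCAAT box, the E box CACGTG, and TCACNCCAC for a sterol regulatory element. Windows of 8 of the 9 genes held a GC box and windows of 4 held a CCAAT box (ACACA, ACLY, ELOVL5 and SCD). By window these were 10 and 6 of the 13, and over all 35116 windows of the table the shares were 42.6% and 32.0%. The E box was found in ELOVL5 alone of the 9, against 6.34% of all windows. The sterol element letters were in 0 of the 13 windows and in 0.883% of all windows. Some of these bases are annotated as exon. Before its first annotated exon base the ELOVL6 window had 0 bases and the ELOVL5 window 21. In that part of the windows no GC box was found for ELOVL6 or SCD, and no CCAAT box or E box for ELOVL5. The windows of ACLY overlap, so a box there can be counted in more than 1 window. These matches describe letters in 1 window per start, and sites elsewhere were not searched.

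Levels of different genes were compared per kilobase (kb) of merged annotated exons. On that scale SCD, ACLY and FADS2 led, with means over the 4 libraries of 43.9, 37.5 and 32.3 CPM per kb. The ranges of these 3 genes overlapped, so they are not ordered. ELOVL5 followed at 17.6 CPM per kb, with every library below those of the first 3 genes and above those of the rest. FASN, FADS1, SREBF1, ME1, ELOVL6 and ACACA had 11.9, 8.75, 6.69, 4.55, 3.44 and 2.88 CPM per kb, and each overlapped its neighbour in that order. In the control libraries alone ACLY led with 33.4 ± 2.2 CPM per kb, SCD had 30.1 ± 1.6 and FADS2 28.9 ± 0.87 (SD, n = 2). In the U1_OE libraries SCD led with 57.8 ± 14.0 CPM per kb, and ACLY had 41.5 ± 7.8. With the exons of basic transcripts only, FADS2 moved to 71.6 CPM per kb and to the first place, because its merged exon length falls from 11026 to 4979 bases. SREBF1 likewise moved to 11.95 CPM per kb, with 4494 in place of 8030 bases. The order within the leading 3 thus depends on the exon set.

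**Figure D3:**
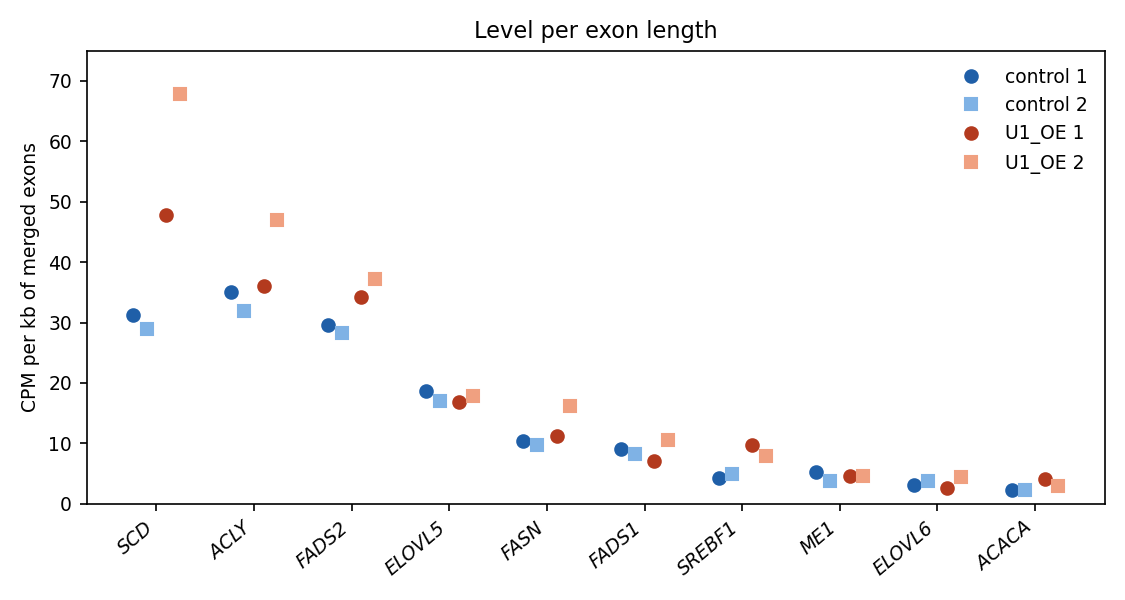
Level of each gene per kb of merged exons in each library, ordered by the mean of the 4 libraries. SCD, ACLY, FADS2 and ELOVL5 stand above the other 6 genes in every library, and the U1_OE points of SCD stand above its control points.

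The 2 U1_OE libraries differed from each other in these genes. U1_OE replicate 2 was above replicate 1 in 7 of the 10 genes, against 50.4% of all genes tested. The ratio of replicate 2 to replicate 1 was 1.69 for ELOVL6, 1.49 for FADS1, 1.45 for FASN, 1.42 for SCD and 1.31 for ACLY. It was 1.09 for FADS2, 1.06 for ELOVL5 and 0.973 for ME1. SREBF1 and ACACA went the other way, at 0.824 and 0.704. The median size of the log2 ratio between the U1_OE libraries was 0.45 over the 10 genes and 0.33 over all genes tested, and between the control libraries 0.14 and 0.24. The genes of the list were therefore close in the control libraries and less so in the U1_OE libraries. These are ratios of single libraries, with no replicate check.

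Genes of cholesterol synthesis and uptake, the branch driven mainly by SREBP-2, were set beside them. Of 25 tested genes 20 were lower and 5 higher in U1_OE by log2 fold change (median -0.32). In 12 both U1_OE libraries were below both controls and in 0 both were above. Over all genes tested those shares were 22.1% and 19.7%. HMGCS1, an early synthase, had 390.2 and 329 CPM in control and 173 and 202 CPM in U1_OE libraries. SQLE, squalene epoxidase, had 129 and 109 against 88.8 and 102 CPM. The groups were apart for HMGCS1 and SQLE. FDPS and FDFT1, which make farnesyl diphosphate and squalene, had edgeR log2 fold changes of -0.26 ± 0.28 and -0.49 ± 0.23 (SE). By edgeR 0 of the 25 were called (5 had an unadjusted p under 0.05, all lower). DESeq2, with 1.08% of all genes called, called HMGCS1 (adjusted p = 0.000492) and the sterol reductase gene TM7SF2 (adjusted p = 6.28e-05), both lower. HMGCS1 lost that call without control replicate 1 (0.611) or 2 (0.111) and with the replicate block (0.0939), and TM7SF2 without control replicate 1 (0.449).

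Between the U1_OE libraries, however, cholesterol genes and most fatty acid genes had the same order. Replicate 2 was above replicate 1 in 20 of the 25 cholesterol genes, with a median log2 ratio of 0.22, and the median over the 10 fatty acid genes was 0.25. In the control libraries replicate 2 was below replicate 1 in 21 of the 25 cholesterol genes (median log2 ratio -0.35) and in 7 of the 10 fatty acid genes (-0.10). The genes of precursor supply and NADPH had this order too, with U1_OE replicate 2 above replicate 1 in 12 of 15 and control replicate 2 below replicate 1 in 13 of 15. So did the other elongation and the other desaturation genes, each with 6 of 9 and 8 of 9. The remaining pathway lists showed this order less or not at all. The regulators of SREBP processing and lipogenic transcription went the other way, with 11 of 26 and 7 of 26. The carboxylation list had 7 of 14 and 7 of 14, and fatty acid uptake 10 of 18 and 10 of 18. Lipid assembly had 17 of 29 and 13 of 29, and fatty acid oxidation 19 of 29 and 14 of 29. Over all genes tested the shares were 50.4% and 49.1%. SCD, FASN and ACLY thus went with most cholesterol genes between the U1_OE libraries and against most of them between the groups. These values come from the same 4 libraries, and the difference between the branches was not tested.

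**Figure D4:**
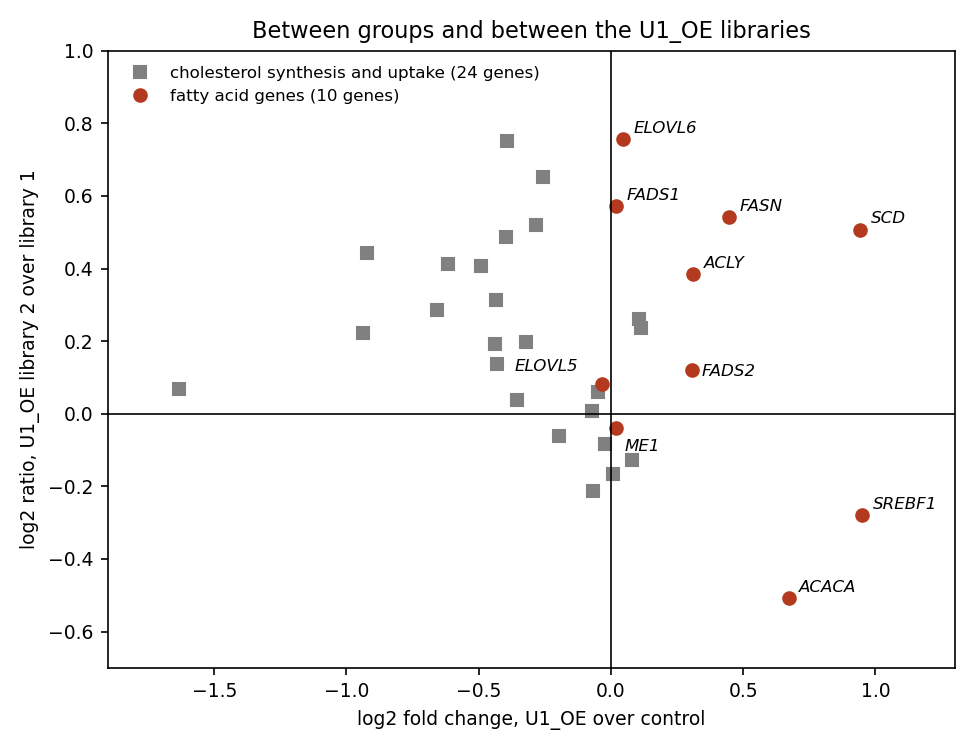
Log2 fold change between groups (x) against the log2 ratio of the 2 U1_OE libraries (y), for the 10 fatty acid genes (red) and 24 of the 25 tested cholesterol genes (grey). The remaining gene lies outside the y axis; most grey points lie left of 0 and above 0, and SREBF1 and ACACA lie right of 0 and below 0.

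The regulators of SREBP processing and of lipogenic transcription showed no call. Of 26 tested genes 12 were positive and 14 negative in log2 fold change, with 0 calls by edgeR or DESeq2 (2 had an unadjusted edgeR p under 0.05, both lower). SREBF2 had 78.2 and 80.9 CPM in control and 72.5 and 65.1 CPM in U1_OE libraries, and SCAP, the escort protein of the SREBPs, 28.4 and 31.8 against 31.1 and 22.9 CPM. INSIG1, which retains SCAP in the endoplasmic reticulum, had 89.6 and 80.9 against 71.0 and 84.5 CPM. MBTPS1, the protease that makes the first SREBP cut, had 82.8 and 87.3 against 96.6 and 77.2 CPM. NR1H3, the liver X receptor alpha, had 8.60 and 9.47 against 6.26 and 6.15 CPM, with a log2 fold change of -0.54 ± 0.20 (SE; edgeR). SREBF1 was thus high in U1_OE libraries while SREBF2 was slightly low, and the groups overlapped for SCAP, INSIG1 and MBTPS1.

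Other genes of supply, elongation and desaturation had no call. Of 15 genes of precursor supply and NADPH 7 were positive and 8 negative (median log2 fold change -0.02), with 0 calls by edgeR or DESeq2 and 2 unadjusted edgeR p under 0.05. Among them the citrate carrier gene SLC25A1 had 143 and 117 CPM in control and 106 and 132 CPM in U1_OE libraries. ACSS2, which makes acetyl-CoA from acetate, had 39.5 and 36.1 against 27.1 and 32.4 CPM, and the transketolase gene TKT 386 and 289 against 254 and 372 CPM. TALDO1 and MDH1, transaldolase and cytosolic malate dehydrogenase, had edgeR log2 fold changes of -0.02 ± 0.16 and 0.09 ± 0.13 (SE). A list of carboxylation, its regulators and other synthases held 14 tested genes, 3 positive and 11 negative, again with 0 calls. Of these, 5 belong to mitochondrial fatty acid synthesis (1 positive, 4 negative) and 9 to carboxylation and its regulators (2 positive, 7 negative). The 2 unadjusted edgeR p under 0.05, both lower, were those of the mitochondrial HSD17B8 and of TRIB3, a pseudokinase, and both genes are named after their values were seen. ACACB, the second carboxylase, had 1.99 and 4.51 against 2.39 and 2.04 CPM, and MID1IP1, which promotes carboxylase polymerisation, 25.1 and 23.6 against 22.8 and 31.4 CPM. PRKAA1, a catalytic subunit of the kinase AMPK that inhibits the carboxylase, and STRADA, a partner of its activator LKB1, had edgeR log2 fold changes of -0.06 ± 0.16 and -0.09 ± 0.12 (SE).

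Of 9 other elongation genes 4 were positive and 5 negative, with 0 calls and 0 unadjusted edgeR p under 0.05. ELOVL1, an elongase of long saturated chains, had 130 and 105 CPM in control and 137 and 174 CPM in U1_OE libraries, and HSD17B12, the ketoreductase of the cycle, 106 and 94.3 against 87.1 and 101 CPM. HACD3, a dehydratase of the cycle, had 77.4 and 76.5 against 80.5 and 84.7 CPM. Of 9 other desaturation genes 5 were positive and 4 negative, with 0 calls and 1 unadjusted edgeR p under 0.05, that of FADS3. FADS3, a relative of FADS1 and FADS2, had 73.0 and 35.8 against 31.0 and 23.4 CPM, a log2 fold change of -1.001 ± 0.38 (SE; edgeR). SCD5, the second stearoyl-CoA desaturase, had 8.35 and 9.87 against 8.06 and 11.4 CPM. DEGS1, the dihydroceramide desaturase, and the electron carriers CYB5R3 and CYB5B had edgeR log2 fold changes of 0.22 ± 0.15, 0.04 ± 0.14 and 0.05 ± 0.19 (SE). The groups were apart for SCD and overlapped for SCD5, and the difference between the 2 genes was not tested.

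Downstream of synthesis, DESeq2, with 1.08% of all genes called, called 1 of 18 tested genes of fatty acid uptake, binding and activation. This was FABP5, a fatty acid binding protein, at 143 and 127 CPM in control and 244 and 205 CPM in U1_OE libraries (log2 fold change 0.75 ± 0.19 (SE), DESeq2 adjusted p = 0.0113). It kept that call without U1_OE replicate 2 (0.0167) and lost it without each of the other libraries (0.313 to 1) and with the replicate block (0.356). By edgeR 0 of the 18 were called (3 unadjusted p under 0.05 higher, 1 lower). DBI, the acyl-CoA binding protein, had 383 and 338 against 458 and 568 CPM, and FABP3 253 and 177 against 177 and 151 CPM. Of 29 genes of triacylglycerol and phospholipid assembly 19 were positive and 10 negative, with 0 calls by either tool (5 unadjusted edgeR p under 0.05 higher, 1 lower). PLIN3, a lipid droplet coat protein, had 214 and 181 against 233 and 323 CPM. MBOAT7, which esterifies arachidonate into phosphatidylinositol, had 78.8 and 68.3 against 112 and 97.7 CPM, and the glycerol-phosphate acyltransferase GPAT4 71.7 and 77.2 against 93.1 and 93.8 CPM. Of 29 genes of fatty acid oxidation 14 were positive and 15 negative, with 0 calls by either tool (1 unadjusted edgeR p under 0.05 higher, 2 lower). CPT1A, the gate of mitochondrial oxidation, had 6.23 and 6.91 against 3.53 and 3.54 CPM, and ACADVL, a dehydrogenase of long chains, 343 and 289 against 266 and 296 CPM. ETFB, which takes up electrons from such dehydrogenases, and HADHA of the trifunctional protein had edgeR log2 fold changes of -0.18 ± 0.14 and 0.13 ± 0.12 (SE).

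The 5 tested genes whose log2 profile over the 4 libraries lay nearest to the mean profile of the 10 were TGFB1, KLHL42, MOCS1, IKBIP and UBE3C, at Euclidean distances of 0.0264 to 0.0382. TGFB1 had 43.5 and 42.2 CPM in control and 51.6 and 60.1 CPM in U1_OE libraries. With 4 libraries many genes come close, and 80 lay within 0.1.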

How the data were processed

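RNA-seq libraries of 2 control and 2 U1_OE samples were grouped by title and genotype label. The authors deposited estimated counts per gene, not normalised. Per the submitters' processing notes, Trim Galore, STAR, featureCounts and DESeq2 were used with hg38, and versions, roles and the origin of the fractional values are not given in the sources used here. Of the deposited values above 0, 1.99% lay within 0.01 of a whole number.

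The counts were rounded, and edgeR 4.0.16 (R 4.3.3) tested 17317 genes kept by filterByExpr, by the quasi-likelihood test with TMM scaling and Benjamini-Hochberg adjustment (threshold 0.05). DESeq2 1.42.0, with its own filter, and limma-voom (limma 3.58.1) were alternatives, as were other scalings and filters, a replicate block and leaving out each library. Standard errors of edgeR were derived from the fold change and the F statistic. Procedures were run on simulated counts to check the code, and their recovery and false calls there are not reported here. All 10 genes passed the filter. Gene positions and exon lengths come from GENCODE v29 (GRCh38, the assembly of hg38).

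The 10 genes and the pathway lists were chosen with earlier results of these data known. All 10 genes are named, and from each pathway list some fixed genes and the 3 of highest mean CPM. Every list gene called by a tool in a fit with all 4 libraries is named too. MLXIPL, also fixed, was not analysed here, and some other fixed genes are not reported here. COL1A1, also fixed, had 29370 and 38310 CPM in control and 41460 and 39670 CPM in U1_OE libraries. RAI1, NR1H2 and the markers named singly were added after the values were seen. Totals were 16713505 to 19057423 counts, and there were 2 libraries per group.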

Additional observations from a re-analysis of the deposited data

How the results depend on the processing

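Of 170 recomputed fold changes of the 10 genes, 0 moved by more than the SD of a single difference between libraries (the root of the summed variances of log2 CPM in both groups), a wide measure with 2 libraries a group. Against the edgeR SE, 26 moved by more, in 7 genes (ACACA, ACLY, ELOVL6, FADS1, FASN, ME1 and SCD), each in a fit with 1 library left out. Sign changed in 19, all in ELOVL5, ELOVL6, FADS1 and ME1, whose values were near 0, and in no fit for the other 6 genes. The number of genes with a negative value was 1 with edgeR and TMM, 3 with library size alone, 2 with a mean of at least 50 counts, 2 with limma-voom, and 0 to 3 with 1 library left out, by edgeR as by DESeq2. The cause was not tested. With the replicate block the negative count was 2, and edgeR called 0 genes over the whole table. Deviations of same-numbered libraries had r = -0.07 across genes, so the numbers share no visible pairing. DESeq2 called 189 genes where edgeR called 0, 80 with the replicate block, 55 and 62 without the first and the second control library, and 147 and 322 without the first and the second U1_OE library. In the pathway lists together it called 3, 1 with the replicate block and 0, 1, 2 and 4 with these libraries left out. The DESeq2 fits with the block or without a library, and the exon set of basic transcripts, were added after the data were seen. A fit without 1 library takes the remaining library of that group to vary as the other group does. The median of the 10 genes ranged from 0.13 without U1_OE replicate 2 to 0.39 without U1_OE replicate 1 by edgeR. Over all genes tested the median was -0.01 by TMM, 0.01 by RLE and -0.04 by library size.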

Other observations

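LPCAT3, which places polyunsaturated chains in phospholipids and is a known target of liver X receptors, as SREBF1 and SCD are, had 21.1 and 24.8 CPM in control and 37.0 and 34.4 CPM in U1_OE libraries. Its edgeR log2 fold change was 0.64 ± 0.15 (SE), and it was not called (adjusted p = 0.459). ABCA1, the cholesterol exporter and another such target, had 1.85 and 4.64 CPM in control and 12.7 and 8.24 CPM in U1_OE libraries (edgeR log2 fold change 1.69 ± 0.51 (SE), adjusted p = 0.492). MYLIP, also such a target, had 23.1 and 47.5 against 25.9 and 23.4 CPM, with overlapping groups. LPCAT3, ABCA1 and MYLIP were chosen after values of the 10 genes were seen. NR1H3, the liver X receptor alpha, was itself lower in U1_OE libraries (edgeR log2 fold change -0.54 ± 0.20 (SE)). NR1H2, the other liver X receptor, had 50.2 and 38.6 CPM in control and 35.3 and 45.5 CPM in U1_OE libraries. Its groups overlapped (edgeR log2 fold change -0.14 ± 0.21 (SE)). Whether liver X receptors have a part in any of these values was not tested.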
